A study of Caenorhabditis elegans with 6 samples.

Results

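The genes described here are 10 components of the endoplasmic reticulum (ER) folding machinery and of its stress response in Caenorhabditis elegans. They were listed by name and matched to rows of the count table through their RefSeq locus tags. All 10 were found among 14605 worm gene rows, and all 10 passed the filter on low counts that left 9203 genes for testing. The data are counts from pools of 500 cells taken at the first larval stage (L1), made with an adapted CEL-seq protocol that reads the 3′ ends of transcripts. There were 3 libraries of intestinal cells and 3 of non-intestinal cells of the kind that divide in that stage, and the series title gives both kinds as 4N, that is, with doubled DNA content. The 6 libraries carry the same transgene, ccyIS27, in which the elt-2 promoter, active in the intestine, drives mCherry-PH at membranes and, behind a P2A peptide, H2B-mCherry in nuclei. No stress treatment is given in the labels. The comparison asks how the ER machinery of the intestinal cells differs from that of the non-intestinal cells.

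Proteins that enter the secretory pathway fold in the ER with the help of chaperones. BiP, an Hsp70 chaperone, holds unfolded chains, calreticulin and calnexin hold chains that carry sugars, and protein disulfide isomerases form and rearrange disulfide bonds. When unfolded proteins build up, the sensors IRE-1, PEK-1 and ATF-6 start the unfolded protein response, in which IRE-1 splices the messenger RNA of the transcription factor XBP-1. The worm intestine is a secretory and nutrient-handling epithelium, and hsp-4 reporters are read mostly there in studies of ER stress.

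Of the 10 genes, 2 rose in intestinal cells, the BiP gene hsp-3 and the calreticulin gene crt-1, each by more than 3-fold, and 0 fell (0 lower at an unadjusted p under 0.05 in edgeR, and 0 lower by DESeq2). The other 8 genes did not pass the test, among them the second BiP gene hsp-4, the 3 sensors and xbp-1. Over all tested genes 13.5% were called higher and 7.64% lower, or 21.2% in either direction, at an adjusted p under 0.05 in edgeR's quasi-likelihood test. The count of 2 in 10 is thus near the background and is not by itself a property of the set. Levels are given as counts per 1000000 (CPM), scaled between libraries by TMM factors. A fold change is that of intestinal over non-intestinal cells. The median log2 fold change of all tested genes was −0.34 under TMM, −0.28 under RLE size factors and −0.84 under library totals alone, so values are also given relative to that median. In bulk pools, fewer cells of a type and less RNA per cell cannot be told apart, and the non-intestinal pools held markers of several cell types. Transcripts of listed muscle and neuronal markers were also counted in the intestinal pools.

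Counts of the reporter were 147, 92 and 4 in intestinal and 1, 0 and 0 in non-intestinal replicates 1, 2 and 3. Totals of worm gene counts ran from 1222704 to 21040813 per library, and replicate 3 was the shallowest library of both groups. The labelled cell types were checked against markers. Of 8 intestinal markers 7 were tested and 7 rose in intestinal libraries, where their summed level was 6764 to 7623 CPM against 44.9 to 187 CPM. Germline markers had a summed level of 8.39 to 36.1 CPM in intestinal and 369 to 632 CPM in non-intestinal libraries, and 5 of 5 tested fell. The sums for epidermal markers were 46.5 to 81.7 against 181 to 326 CPM, for muscle markers 736 to 1939 against 844 to 3033 CPM, and for neuronal markers 231 to 803 against 332 to 439 CPM. Of single markers in these lists, egl-21 (neurons) rose and nhr-23 (epidermis) fell in intestinal libraries, the egl-21 call being lost without intestinal replicate 2 (adjusted p = 0.091 in edgeR). The epidermal gene elt-3 was called higher at an edgeR adjusted p of 0.049, but not on removal of any single library (0.056 to 0.12), under the replicate block (0.057) or under library totals alone (0.089). The muscle gene unc-15 was called lower under the block (edgeR adjusted p = 0.016, against 0.25 without it). Most of the muscle sum came from unc-54, which was not called (edgeR adjusted p = 0.88). It was at 1464, 1054 and 692 CPM in intestinal and 1876, 1050 and 566 CPM in non-intestinal replicates 1, 2 and 3. The muscle gene myo-3 and the germline gene nos-2 were at 0 in the 3 intestinal libraries and at most 0.159 CPM in the others, and glp-1 was at 0 in intestinal replicate 1. The part of cell type makeup in the results below was not tested.

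The BiP gene hsp-3 (C15H9.6, X:6089028-6092124, minus strand, WBcel235) codes for the BiP form that worms make in quantity without stress. Its level was 4000, 3892 and 2709 CPM in intestinal replicates 1, 2 and 3 and 1282, 1303 and 770 CPM in the non-intestinal replicates. The lowest intestinal library therefore lay well above the highest non-intestinal library, and within each group replicate 3 was the lowest. The means were 3534 ± 716 and 1118 ± 302 CPM (SD, n = 3 each), a 3.16-fold difference with a 95% interval of 1.79 to 5.59. On the log2 scale this was 1.66 ± 0.37 (SE; adjusted p = 0.011 in edgeR), which lay 2.00 above the median of the tested genes. Same-numbered libraries differed by nearly the same amount, 1.64, 1.58 and 1.81 on the log2 scale in pairs 1, 2 and 3. Its call held whichever of the 6 libraries was left out, with edgeR adjusted p from 0.0081 to 0.033.

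The calreticulin gene crt-1 (Y38A10A.5, V:6098992-6100542, minus strand) codes for a calcium-binding lectin chaperone of the ER lumen. Its level was 3613, 3264 and 2619 CPM in intestinal replicates 1, 2 and 3, and 883, 802 and 981 CPM in the non-intestinal replicates. The groups were again far apart, and the non-intestinal libraries were close to each other. With means of 3165 ± 504 and 889 ± 89.2 CPM (SD, n = 3 each), the difference was 3.56-fold with a 95% interval of 2.10 to 6.03. That is 1.83 ± 0.35 on the log2 scale (SE; adjusted p = 0.0044 in edgeR), and 2.17 relative to the median gene. Leaving out any 1 of the 6 libraries kept this call too (edgeR adjusted p from 0.0054 to 0.016). The annotation places 92 exonic bases of smut-1 on the opposite strand over crt-1. Counts per library were 10 to 184 for smut-1 and 1804 to 56653 for crt-1. Strand use in the counting is not stated, and the part of this overlap in the crt-1 counts was not tested.

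**Figure D1:**
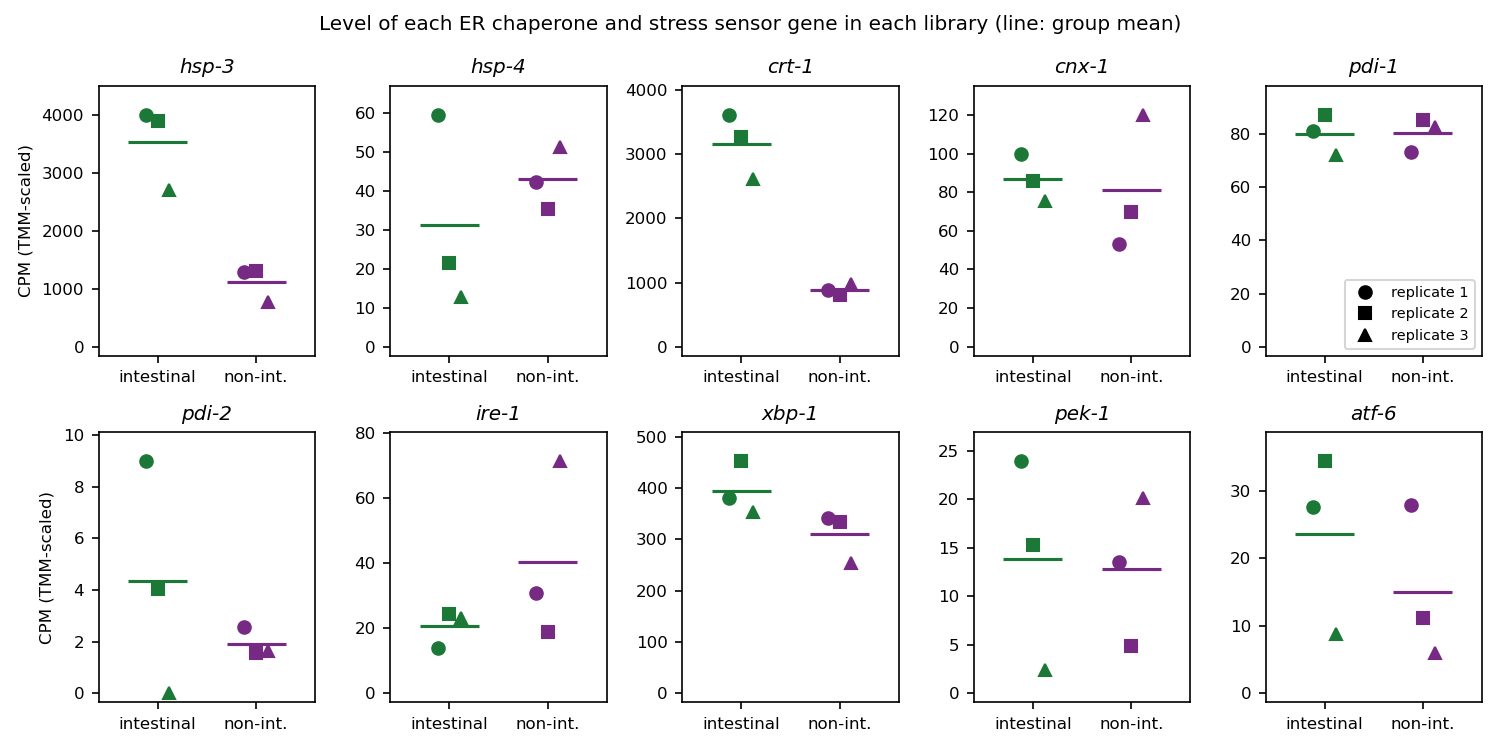
TMM-scaled CPM of the 10 genes in each library, with intestinal libraries in green, non-intestinal libraries in purple, a marker shape for each replicate number, a line at each group mean and linear axes that differ between panels. The intestinal points of hsp-3 and crt-1 lie at 2619 CPM or more and the non-intestinal ones at 1303 CPM or less, while the other panels show overlapping groups except for xbp-1.

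The second BiP gene, hsp-4 (F43E2.8, II:7350112-7352645, minus strand), is the one strongly induced through ire-1 and xbp-1 under ER stress. Its level was 59.4, 21.5 and 12.8 CPM in intestinal replicates 1, 2 and 3 and 42.1, 35.4 and 51.1 CPM in the non-intestinal replicates. Intestinal replicate 1 was the highest of the 6 libraries and intestinal replicates 2 and 3 were the lowest, so the groups overlapped. Intestinal replicate 3 held 16 counts of the gene. The estimate was −0.44 ± 0.70 on the log2 scale (SE; adjusted p = 0.69 in edgeR), with a 95% interval of −1.99 to 1.11. The interval reaches a 2.16-fold higher intestinal level. When both replicate 3 libraries were left out the estimate was 0.078.

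The balance of the BiP pair was compared within libraries, where scaling between libraries cancels. Counts of hsp-4 made up 1.46% (95% Wilson interval 1.36 to 1.57), 0.549% (0.496 to 0.608) and 0.471% (0.290 to 0.764) of the summed hsp-3 and hsp-4 counts in intestinal replicates 1, 2 and 3. In the non-intestinal replicates the share was 3.18% (2.82 to 3.58), 2.65% (2.47 to 2.84) and 6.23% (5.11 to 7.56). These intervals cover counting error only and take each count as a separate molecule. Whether repeated reads of a molecule were collapsed is not stated, and without that the intervals are too narrow. Every non-intestinal share was above every intestinal share, and the share was lower in the intestinal library of 3 of 3 pairs. Counts of hsp-3 enter the share, and hsp-3 was called higher (log2 fold change 1.66) while hsp-4 was not called (−0.44). The share is therefore not a result apart from that of hsp-3, and it does not show a change in hsp-4. The means were 0.828 ± 0.552% and 4.02 ± 1.93% (SD, n = 3 each), a difference of −3.19 percentage points. The exact two-sided permutation test gave p = 0.1, the smallest that 3 libraries against 3 can give, so this test cannot go under 0.05 with these libraries. Without non-intestinal replicate 3, the library with the highest share, the difference was −2.08 percentage points. Counts are of 3′ ends and were not divided by length, so the share is compared between groups and is not the molar share of hsp-4. The pair codes for closely related proteins, and reads divided between them by the counting were not examined.

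**Figure D2:**
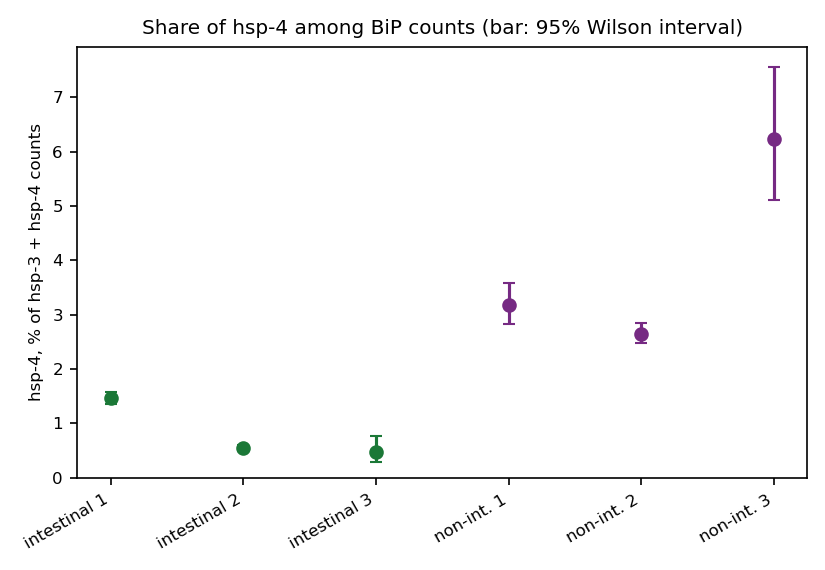
Share of hsp-4 in the summed counts of hsp-3 and hsp-4 in each library, in percent. The 95% Wilson intervals cover counting error only, with each count taken as a separate molecule. The intestinal libraries (green) lie between 0.471% and 1.46% and the non-intestinal libraries (purple) between 2.65% and 6.23%.

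Calnexin, the membrane-bound relative of calreticulin, did not pass the test. The gene cnx-1 (ZK632.6, III:9814364-9817137, minus strand) was at 99.6, 86.0 and 75.3 CPM in intestinal replicates 1, 2 and 3 and at 53.1, 69.8 and 120 CPM in the non-intestinal replicates. The intestinal values lay inside the range of the others. Intestinal minus non-intestinal level was 0.11 ± 0.55 on the log2 scale (SE; adjusted p = 0.91 in edgeR), and its 95% interval of −1.09 to 1.31 does not reach the 1.83 of crt-1, though the difference between these genes was not tested. An opposite-strand gene, ZK632.14, shares 49 exonic bases with cnx-1 and had 15 to 186 counts per library against 94 to 1536 for cnx-1, and strand use in the counting is not stated.

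The disulfide isomerase genes of the set gave values without a call. The level of pdi-1 (C14B1.1, III:3699739-3701461, minus strand) was 81.2, 87.3 and 72.1 CPM in intestinal and 73.5, 85.3 and 82.6 CPM in non-intestinal replicates 1, 2 and 3. No other gene of the 10 had group means so close, at 80.2 ± 7.63 and 80.5 ± 6.21 CPM (SD, n = 3 each). The interval of its log2 fold change, −1.12 to 1.11, reaches 2.16-fold higher (edgeR adjusted p = 1.0). The gene pdi-2 (C07A12.4, X:4524155-4526536, plus strand), whose product is also the beta subunit of collagen prolyl 4-hydroxylase, had few counts. It had 108, 70 and 0 counts in intestinal and 16, 34 and 3 in non-intestinal replicates 1, 2 and 3, or 8.98, 4.03 and 0 against 2.55, 1.54 and 1.63 CPM. The count of 0 in intestinal replicate 3 allows up to 3 counts, or 2.40 CPM, counting error only. Its log2 fold change of 1.24 ± 1.31 (SE, adjusted p = 0.53 in edgeR) was not distinguishable from 0 with these counts. A noncoding RNA gene on the same strand, C07A12.19, shares 18 exonic bases with pdi-2 and has no row in the counts. The part of this overlap in the low counts of pdi-2 was not tested.

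The 3 sensors were measured at low levels and none passed the test. The gene ire-1 (C41C4.4, II:8112243-8124910, minus strand) codes for the kinase and RNase that splices xbp-1. It was at 14, 24.4 and 23.2 CPM in intestinal and at 30.9, 18.9 and 71.2 CPM in non-intestinal replicates 1, 2 and 3. The estimate of −0.97 ± 0.71 on the log2 scale (SE; adjusted p = 0.36 in edgeR) rested on non-intestinal replicate 3, the highest library, and without that library it was 0.013. The 95% interval with all 6 libraries was −2.53 to 0.60. Removal of non-intestinal replicate 3 also moved the median of all tested genes, from −0.34 to −0.049.

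The gene pek-1 (F46C3.1, X:11410176-11414887, minus strand) codes for the kinase that slows translation by phosphorylating eIF2α. Its level was 23.9, 15.3 and 2.40 CPM in intestinal and 13.5, 4.82 and 20.1 CPM in non-intestinal replicates 1, 2 and 3. The pairs pointed both ways, with 2 of 3 higher in the intestinal library and replicate 3 much lower, where there were 3 intestinal counts. Its log2 difference was 0.16 ± 0.94 (SE; adjusted p = 0.92 in edgeR). The gene atf-6 (F45E6.2, X:12480948-12484904, plus strand) codes for a membrane-held transcription factor that is freed by cleavage. It was at 27.7, 34.4 and 8.81 CPM in intestinal and at 27.9, 11.2 and 5.98 CPM in non-intestinal replicates 1, 2 and 3. The groups overlapped, and the log2 difference was 0.66 ± 0.83 (SE; adjusted p = 0.61 in edgeR). Without non-intestinal replicate 1 it was 1.59, the highest estimate when any single library was removed, still without a call. In that fit the median of all tested genes was 0.033, against −0.34 with all libraries.

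Transcripts of xbp-1 (R74.3, III:4193809-4195358, plus strand), which codes for the transcription factor downstream of IRE-1, were measured with little spread. Their level was 380, 452 and 353 CPM in intestinal and 342, 334 and 254 CPM in non-intestinal replicates 1, 2 and 3. The groups did not overlap, as was the case for 3 of the 10 genes (hsp-3, crt-1 and xbp-1) and for 45.4% of all tested genes. The log2 fold change was small, at 0.35 ± 0.41 (SE; adjusted p = 0.58 in edgeR), with a 95% interval of −0.55 to 1.25, and it was −0.14 under library totals alone. The deposited counts are per gene, so spliced and unspliced xbp-1 were not told apart, and the activity of IRE-1 was not measured.

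**Figure D3:**
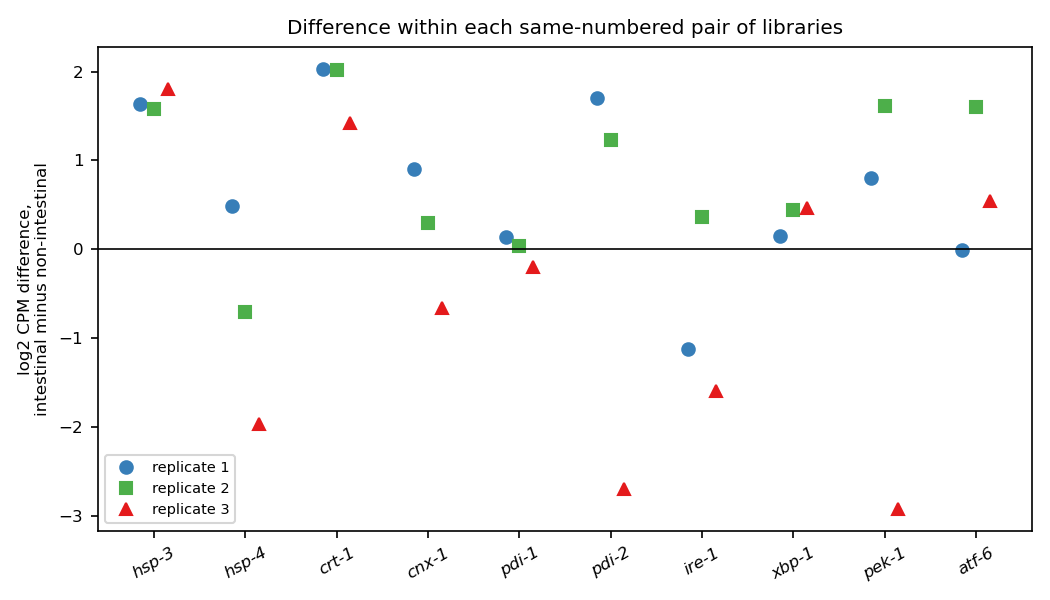
Difference in log2 CPM (prior count 3) between the intestinal and the non-intestinal library of the same replicate number, for each of the 10 genes. For hsp-3 and crt-1 the 3 points lie between 1.42 and 2.03, for xbp-1 between 0.15 and 0.47, and for pek-1 and pdi-2 the replicate 3 point lies at −2.92 and −2.70 while the other 2 are above 0.

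Together the 10 genes took 0.590%, 0.650% and 0.600% of the worm gene counts in intestinal replicates 1, 2 and 3 and 0.351%, 0.294% and 0.275% in the non-intestinal replicates. The genes hsp-3 and crt-1 made up 90.7% to 91.6% of that sum in intestinal and 74.3% to 79.0% in non-intestinal libraries. The other 8 genes had from 0.0493% to 0.0598% of the worm gene counts in intestinal and from 0.0618% to 0.0747% in non-intestinal libraries. On these unscaled counts the summed share was higher in every intestinal library, while the share of the other 8 genes was lower in every intestinal library. That direction depended on the scaling. On TMM-scaled CPM the other 8 genes summed to 695, 725 and 548 in intestinal and 585, 561 and 607 in non-intestinal replicates 1, 2 and 3, so the groups overlapped and intestinal libraries were higher in pairs 1 and 2. The median log2 fold change of the 10 genes was 0.26 under TMM and −0.26 under library totals alone, 0.59 above the median of all tested genes in both cases.

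Genes with the most similar profiles were sought among all tested genes by the mean absolute difference in centred log2 CPM over the 6 libraries. Nearest to hsp-3 were kpc-1, which codes for a proprotein convertase (mean difference 0.05), sucl-1, which codes for a succinyl-CoA ligase subunit (0.08), and the disulfide isomerase gene pdi-3 (0.10). Of these, sucl-1 and pdi-3 were called higher (edgeR adjusted p = 0.021 and 0.013) and kpc-1 was not (0.075). Nearest to hsp-4 were the retromer gene vps-26 (0.16), eif-2Bgamma, which codes for a subunit of a translation initiation factor (0.21), and etr-1, which codes for an RNA-binding protein (0.22). None of these 3 was called. All of these genes were chosen by their profiles in these same libraries, so their calls are not results apart from those of hsp-3 and hsp-4.

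Further ER genes were taken as lists by function. Translocation and N-glycosylation genes, which bring chains into the ER and attach their sugars, were the list with the most calls. Of 16 listed genes 14 were in the table and tested, 5 rose and 0 fell, against 13.5% and 7.64% of all tested genes. The log2 fold changes of these 14 genes were positive in 14 cases under TMM and in 13 under library totals alone, with a median of 1.22, or 1.55 above the median of all tested genes. With the replicate number as a block, 9 rose, against 15.1% of all tested genes in that fit. The number called higher was 1 without intestinal replicate 1, where 788 of 9020 tested genes were called higher. It was 2 without intestinal replicate 2, where 985 of 8969 tested genes were. Library totals alone also gave 2, where 1062 of 9203 tested genes were called higher. In each of these fits the list was thus near the background.

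The translocon-associated gene trap-2 was at 2142, 1398 and 821 CPM in intestinal and at 409, 391 and 240 CPM in non-intestinal replicates 1, 2 and 3. Its log2 fold change of 2.07 ± 0.46 (SE; adjusted p = 0.011 in edgeR) was called whichever library was left out. The gene stt-3 codes for the catalytic subunit of oligosaccharyltransferase, the enzyme that attaches N-linked sugars. It was at 902, 807 and 893 CPM in intestinal and at 205, 296 and 360 CPM in non-intestinal replicates 1, 2 and 3, with no overlap. Intestinal cells were higher by 1.59 ± 0.41 on the log2 scale (SE; adjusted p = 0.019 in edgeR), and the call was lost without intestinal replicate 1 (0.057). The other called genes were ostd-1, for another subunit of that enzyme (1.70, edgeR adjusted p = 0.026), trap-4 (1.56, 0.039) and sec-61.A, for the channel of the translocon (1.12, 0.043). Leaving out single libraries ended these 3 calls in 2 of 6 cases for ostd-1, 3 for trap-4 and 5 for sec-61.A. They were also lost under library totals alone, with edgeR adjusted p of 0.050 for ostd-1, 0.082 for trap-4 and 0.13 for sec-61.A. Removal of intestinal replicate 1 ended all 3 calls.

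Disulfide enzymes and collagen hydroxylases had calls in both directions. Of 9 listed genes 8 were in the table and 7 were tested, with 1 called higher and 1 lower. Over all tested genes 13.5% were called higher and 7.64% lower, and counts from so few genes cannot be told apart from those shares. The isomerase gene pdi-3 was at 1802, 1917 and 1091 CPM in intestinal and at 498, 591 and 354 CPM in non-intestinal replicates 1, 2 and 3, so that the groups did not overlap. The rise was 1.74 ± 0.41 on the log2 scale (SE; adjusted p = 0.013 in edgeR) and stayed called whichever library was left out. The related pdi-6 had 1.62 ± 0.54 (SE, adjusted p = 0.056 in edgeR). It was called under the replicate block (edgeR adjusted p = 0.014), under RLE size factors (0.037) and by DESeq2 (adjusted p = 0.02). Under library totals alone it was not called (edgeR adjusted p = 0.11). The gene dpy-18, for a catalytic subunit of collagen prolyl 4-hydroxylase, fell to 2.99, 8.12 and 3.21 CPM in intestinal libraries from 37.5, 21.9 and 54.9 CPM in non-intestinal replicates 1, 2 and 3. In log2 units this was −2.95 ± 0.80 (SE; adjusted p = 0.024 in edgeR). That call was lost without intestinal replicate 1, non-intestinal replicate 1 or non-intestinal replicate 3, with edgeR adjusted p up to 0.11. The summed epidermal markers, given above, were lower in the same libraries, and their part in this result was not tested. The listed gene phy-2 was called lower by DESeq2 (adjusted p = 0.033) but not by edgeR (adjusted p = 0.13). The oxidase gene ero-1, which recharges the isomerases, had group levels of 40.9 to 94.7 and 62.5 to 82.0 CPM (adjusted p = 1.0 in edgeR).

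Other lists gave few calls. Over all tested genes 21.2% were called in either direction by edgeR, and DESeq2 called 3280 of 14605 rows. The share of all genes with an unadjusted p under 0.05 is not given here. With 4 to 12 tested genes per list, such counts are not by themselves properties of the lists. Of 6 tested further ER chaperones 0 were called by edgeR, 2 had an unadjusted p under 0.05 and 1 was called by DESeq2. Among them T14G8.3 was called under the replicate block (edgeR adjusted p = 0.038, against 0.20 and a log2 difference of 1.34 ± 0.70, SE, without the block), and the Hsp90-type chaperone gene enpl-1 had 1.10 on that scale (adjusted p = 0.12 in edgeR) and was the gene called by DESeq2 (adjusted p = 0.030). Of 12 tested genes of ER-associated degradation, which returns misfolded chains to the cytosol, 0 were called by edgeR or DESeq2, 0 had an unadjusted p under 0.05, and their log2 fold changes ran from −1.41 for ufd-1 to 0.72 for cup-2. The list median was 0.23, or 0.56 above that of all tested genes. Of 4 tested prolyl isomerase genes 0 were called by edgeR, 1 had an unadjusted p under 0.05 and 1 was called lower by DESeq2; their median was −0.99.

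Among 4 tested partners of the sensors 1 was called lower, against 7.64% of all tested genes, namely gcn-2. It codes for a cytosolic kinase that phosphorylates the same translation factor as PEK-1 when amino acids are short. Its level was 26.3, 32.4 and 18.4 CPM in intestinal and 84.0, 66.6 and 203 CPM in non-intestinal replicates 1, 2 and 3. The fall was −2.18 ± 0.64 in log2 units (SE; adjusted p = 0.034 in edgeR), and the call was lost on removal of any single library but non-intestinal replicate 2 (edgeR adjusted p up to 0.17). The estimates in those fits ran from −2.35 to −1.31, the latter without non-intestinal replicate 3. The gene atf-4, for a transcription factor translated when that factor is phosphorylated, had no overlap between groups. It was at 151, 235 and 243 CPM in intestinal and at 73.3, 42.7 and 3.26 CPM in non-intestinal replicates 1, 2 and 3. Its log2 fold change of 2.38 ± 0.85 (SE) had an edgeR adjusted p of 0.071, and of 0.031 under the replicate block. It was also called by DESeq2 (adjusted p = 0.022), but not under RLE size factors (edgeR adjusted p = 0.055) or library totals alone (0.13).

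Of the 3 genes that move calcium across the ER membrane 1 was called higher, against 13.5% of all tested genes, namely itr-1. It codes for the inositol trisphosphate receptor, a calcium release channel that paces the intestinal defecation rhythm. Its level was 140, 122 and 240 CPM in intestinal and 1.59, 11.2 and 7.07 CPM in non-intestinal replicates 1, 2 and 3. The rise of 4.64 ± 0.81 in log2 units (SE; adjusted p = 0.0030 in edgeR) stayed called whichever library was left out. The ryanodine receptor gene unc-68, known for calcium release in muscle, had −2.48 ± 0.83 (SE, adjusted p = 0.057 in edgeR). It was called lower by DESeq2 (adjusted p = 0.012) and under library totals alone (edgeR adjusted p = 0.027). Under RLE size factors (edgeR adjusted p = 0.053) and the replicate block (0.11) it was not called. The calcium pump gene sca-1 was at 8.14 CPM or less and was not called (edgeR adjusted p = 0.67).

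**Figure D4:**
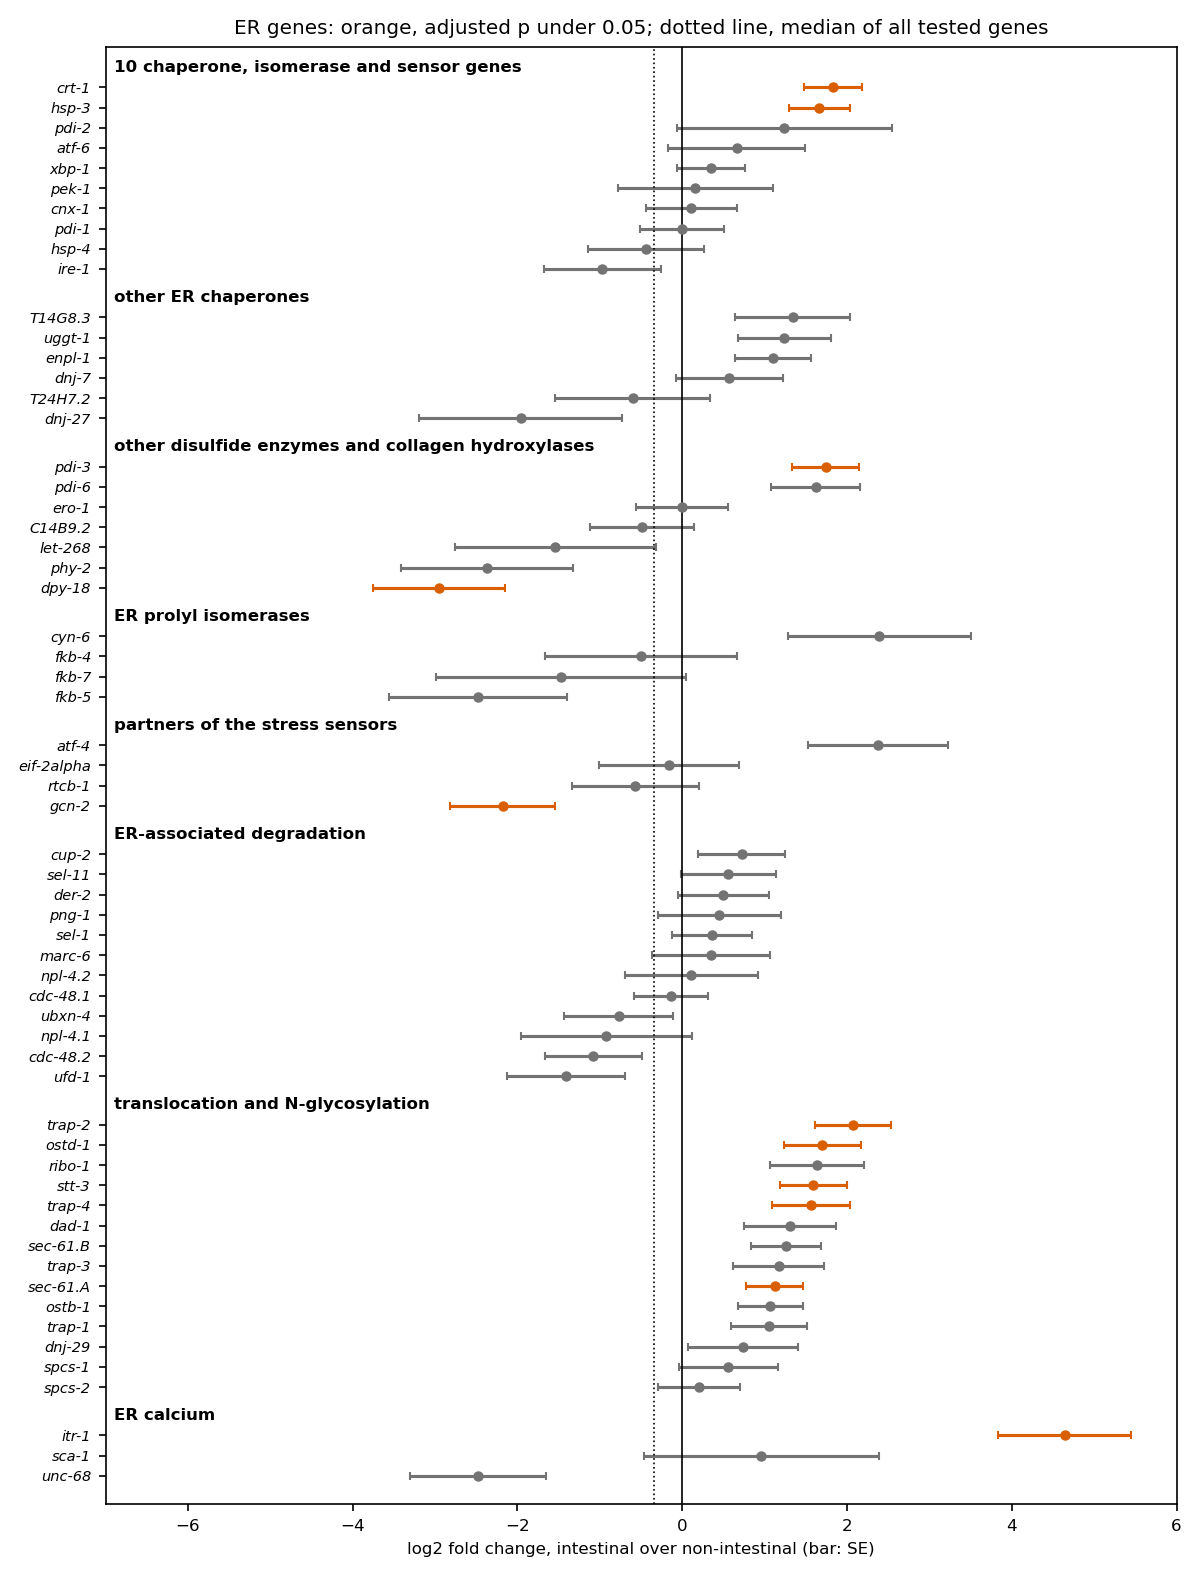
Log2 fold change of intestinal over non-intestinal cells with its SE for the tested genes of the set and of the 7 lists, in orange where the edgeR adjusted p was under 0.05. The dotted line is the median of all tested genes, −0.34; the translocation and N-glycosylation genes lie above 0, whereas degradation genes lie on both sides of it without a call.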

How the data were processed

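RNA was counted in 6 libraries, 3 per group. The authors deposited 1 table of raw counts per gene and library, with no normalization; per the submitters' processing notes STARsolo 2.7.10a and the builds WBcel235 and ce11 were used. Strand use, annotation and the collapsing of molecular identifiers are not given in the sources used here. Spike-in, reporter and RIT rows were left out of totals. Positions and overlaps came from the Ensembl annotation of WBcel235. No sequence was printed.

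Groups were compared across all genes with edgeR 4.0.16 in R 4.3.3 (glmQLFit, robust, TMM, group as the only term, filterByExpr with a minimum count of 10 and minimum total of 15, Benjamini-Hochberg adjustment over 9203 genes, called under 0.05). Intervals of 95% used the SE from the F statistic. The script was tested on simulated data with less spread between libraries than these data, whose common coefficient of biological variation was 0.731. That test therefore does not measure the power or error rate of the comparison here. DESeq2 1.42.0 and other settings were alternatives. P-values measure the spread between libraries labelled as biological replicates.

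The members and lists were chosen with earlier results of these data known. The naming rule took the 10 genes, called genes of each list (at most 6 per list) and the 3 nearest profiles of hsp-3 and hsp-4; other genes, such as ZK632.14, smut-1, glp-1, egl-21, elt-3, nhr-23, pdi-6, enpl-1, atf-4, ufd-1, cup-2, T14G8.3, ero-1, sca-1, unc-68, myo-3 and nos-2, were chosen after their values were seen. From the lists, edem-1, edem-2, edem-3, emo-1, hpo-21, dnj-20, phy-3, cyn-5, fkb-3 and gcn-1 were not analysed here.

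Both groups carry replicate numbers 1 to 3. Because of these shared numbers, same-numbered libraries were treated as pairs in an alternative fit. Deviations from the group mean correlated at 0.278, 0.157 and 0.279 across genes between same-numbered libraries and at −0.256 to 0.0695 otherwise. Centring on the group mean lowers the other correlations where the same-numbered ones are positive, so this contrast is partly fixed by the centring. Replicate 3 was the shallowest in both groups, and its part in these correlations was not tested. No libraries of a group agreed within sampling noise (chi-square per degree of freedom 33.3 to 178).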

Additional observations from a re-analysis of the deposited data

How the results depend on the processing

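The calls of hsp-3 and crt-1 held under each of the 16 other fits, the replicate block included, and none of the other 8 genes was called in any fit that tested it; pdi-2 was not tested at equal depth. At an adjusted p under 0.01, 1 of the 10 genes (crt-1) was called. The total of called genes, 1949, was 3280 by DESeq2 and 842 at 0.01, and 986 to 1913 with 1 library left out (lowest without intestinal replicate 1). Translocation and glycosylation genes called higher, 5, were 8 with RLE size factors, by DESeq2 or at equal depth, 9 under the replicate block, 2 with library totals alone, 0 at 0.01 and 1 to 8 with 1 library left out. Of all tested genes, 1353 of 9203 were called higher with RLE size factors and 1080 of 6381 at equal depth. With library totals alone 1062 of 9203 were, and DESeq2 called 1848 of 14605 rows higher.

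Of 159 values of the 10 genes under alternatives, 141 kept their direction and side of the threshold and 18 changed sign, all in genes without a call. The log2 fold change of hsp-4 became 0.078 without both replicate 3 libraries. Library totals alone gave −0.14 for xbp-1, −0.47 for pek-1 and −0.38 for cnx-1, and equal depth −0.062 for cnx-1. For pdi-1, at −0.0038, it was 0.079 with RLE, 0.01 with no filter, 0.019 with a filter of 10 counts in 3 libraries, 0.076 by DESeq2 and 0.095 without both replicate 3 libraries. With 1 library left out, ire-1 ran from −1.09 to 0.013, pek-1 from −0.44 to 0.85 and pdi-1 from −0.039 to 0.38. The cause was not tested. Under the replicate block, the exact sign-flip test of the hsp-4 share over 3 pairs gave p = 0.25, the smallest it can give. The replicate 3 libraries held from 0 to 94 counts of pdi-2, pek-1, atf-6 and hsp-4; without them the edgeR adjusted p was 0.27, 0.34, 0.50 and 0.95, so these genes were not called there either.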
